A study of Mus musculus with 19 samples.

Results

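The genes described here belong to families that encode small metal-binding proteins. They are 3 metallothioneins (Mt1, Mt2 and Mt3) and 7 S100 genes (S100b, S100a1, S100a6, S100a10, S100a11, S100a13 and S100a16). They were found by symbol in the expression table, where each stood on 1 entry, and are 10 of 60567 listed genes. RNA was sequenced from hippocampal cells of 9 month-old male mice on a C57bl6 background, sorted by FACS on GFP fluorescence. WT-GFP (n = 7) are GFP+ astrocytes of non-transgenic littermates that received an adeno-associated vector (AAV) encoding GFP alone. APP-GFP (n = 4) are GFP+ astrocytes of APP/PS1dE9 mice, a transgenic model of Alzheimer's disease, after the same vector. APP-SOCS3 (n = 5) are GFP+ astrocytes of APP/PS1dE9 mice that received AAV-SOCS3 together with AAV-GFP at an equal total viral load. SOCS3 inhibits the JAK2-STAT3 pathway. The fourth group holds GFP- cells of WT-GFP mice (n = 3). The authors describe it as a mixture of microglia, neurons, oligodendrocyte precursor cells and astrocytes that were not infected. All mice were thus injected with virus, transgenes were driven by gfaABC1D, a promoter derived from that of GFAP, and no GFP- sample came from an APP mouse. The left and the right hippocampus of a mouse were sorted separately, and the labels do not tell which samples share a mouse, so p-values measure the spread between samples.

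Metallothioneins are short, cysteine-rich proteins that hold zinc and copper in metal-thiolate clusters. Mt1 and Mt2 are produced in many tissues and are induced by metals, through the zinc-sensing factor MTF-1 at metal response elements, and by glucocorticoids, whereas Mt3 is mainly a brain protein that was first described as growth inhibitory factor. Most S100 proteins are dimers with calcium-binding EF hands that change shape on calcium entry and then bind target proteins. S100b is a classical astrocyte protein that is also secreted, and S100a10 is the light chain of a complex with annexin A2.

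Of the 10 genes, 3 lie on chromosome 8, 6 on chromosome 3 and 1 on chromosome 10 (mm10). Mt3 (chr8:94152606-94154148), Mt2 (chr8:94172618-94173567) and Mt1 (chr8:94179089-94180325) follow each other on the plus strand, with 18469 bases between Mt3 and Mt2 and 5521 bases between Mt2 and Mt1. S100a1 (chr3:90511034-90514392, minus strand) and S100a13 (chr3:90514435-90524579, plus strand) stand head to head, 42 bases apart. The other S100 genes of that chromosome are S100a16 (chr3:90537372-90543149), S100a6 (chr3:90612894-90614414), S100a11 (chr3:93520494-93526288) and S100a10 (chr3:93555117-93564645), and S100b is at chr10:76253836-76261318, all on the plus strand. The principal GENCODE transcripts have 3 exons, except that of S100a13, which has 4, and are 511 to 1484 bases long.

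The metallothionein promoters are shown because these 3 genes had the largest differences between astrocytes and other cells and moved together between samples. Each sequence is 300 bases from RefSeq (GRCm38.p6), 250 before and 50 from the annotated start of transcription, on the plus strand. Capitals mark matches, on either strand, to TGCACNC or TGCGCNC, the core letters of a metal response element. The windows are chr8:94178839-94179138 for Mt1, chr8:94172368-94172667 for Mt2 and chr8:94152357-94152656 for Mt3.
Mt1: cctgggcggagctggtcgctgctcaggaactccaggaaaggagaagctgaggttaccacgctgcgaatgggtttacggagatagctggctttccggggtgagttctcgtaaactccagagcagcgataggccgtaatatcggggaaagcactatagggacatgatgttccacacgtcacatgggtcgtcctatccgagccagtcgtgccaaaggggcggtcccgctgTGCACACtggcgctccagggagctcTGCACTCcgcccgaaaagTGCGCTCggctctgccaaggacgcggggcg
Mt2: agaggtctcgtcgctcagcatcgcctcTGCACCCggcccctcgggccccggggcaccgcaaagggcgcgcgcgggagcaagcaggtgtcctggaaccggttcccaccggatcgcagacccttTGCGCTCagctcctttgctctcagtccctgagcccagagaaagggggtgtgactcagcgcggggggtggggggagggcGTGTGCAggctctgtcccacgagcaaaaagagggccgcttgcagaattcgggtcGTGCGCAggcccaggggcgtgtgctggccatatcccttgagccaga
Mt3: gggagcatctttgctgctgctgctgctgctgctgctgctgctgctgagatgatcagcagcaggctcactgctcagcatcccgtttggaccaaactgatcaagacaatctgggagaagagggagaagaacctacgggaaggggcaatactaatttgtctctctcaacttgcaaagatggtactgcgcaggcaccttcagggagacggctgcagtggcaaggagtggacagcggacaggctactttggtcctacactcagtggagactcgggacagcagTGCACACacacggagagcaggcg
These letters occurred 3 times in the Mt1 window, 4 times in that of Mt2 and 1 time in that of Mt3, with no overlap between matches. Of 32851 promoters of this length, 25.7% held at least 1 match, 1.97% at least 3 and 0.517% at least 4. Among the 6 S100 members with a promoter in RefSeq, 1 of the windows of S100a16 held 1 match and the others none. TGACNNNGC, the core of an antioxidant response element, was present in the Mt2 window and in another window of S100a16, as in 12.4% of all promoters, and TTCNNNGAA, the letters of a STAT site, in none of the members' windows, against 8.3% of all promoters. A match describes letters and not a bound site. The windows of S100a1 and S100a13 shared 204 bases.

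Reads counted on genes were 19331876 to 32621917 per sample. Levels are read counts divided by the size factor of the sample. Socs3, the transferred gene, had levels of 13296 to 37750 in APP-SOCS3 samples, above all other astrocyte samples (457.8 to 1208 for WT-GFP, 438.3 to 1639 for APP-GFP), and of 10320 to 17689 in GFP- cells. The summed level of 8 astrocyte markers was 483023 to 923143 in the 16 GFP+ samples and 17288 to 62393 in GFP- cells, with Aqp4 at 11.4% of its WT-GFP mean in the latter. The summed levels of 8 microglial markers and of 8 endothelial markers were 6.56 to 23.9% and 1.93 to 25.0% of the GFP- mean in WT-GFP, 9.89 to 41.8% and 3.29 to 16.4% in APP-GFP and 5.37 to 9.11% and 0.589 to 3.70% in APP-SOCS3 samples. None of these markers was at 0 throughout a group. Markers of astrocytes and of other cells were thus detected on both sides of the sort, and in such bulk samples fewer cells of a type and less RNA per cell cannot be told apart. In GFP- cells the summed levels were 87370 to 153842 for microglial and 95036 to 155114 for endothelial markers. They were 74667 to 99089 for 6 mural and 1299 to 2923 for 6 neuronal markers there. The authors' account of GFP- cells does not name endothelial or mural cells.

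In astrocytes, Mt1 was among the most abundant transcripts of the table. Among all genes, it ranked 26 to 117 in the 7 WT-GFP samples, 36 to 41 in those of APP-GFP and 30 to 76 in those of APP-SOCS3, against 490 to 1181 in GFP- cells. The 3 metallothioneins together took 0.126 to 0.467% of all reads in WT-GFP and 0.0209 to 0.0413% in GFP- cells. Per kb of transcript, the mean level in the 16 GFP+ samples was 89353 ± 29014 for Mt1, 31374 ± 10875 for Mt3, 17824 ± 5383 for S100a1 and 17580 ± 5295 for Mt2 (SD, n = 16). Below these came S100b with 5529 ± 1832, S100a13 with 3706 ± 1239, S100a16 with 3592 ± 885, S100a10 with 1963 ± 724, S100a6 with 1674 ± 470 and S100a11 with 356 ± 205 per kb. Neighbours in this order kept it in all 16 samples, except S100a1 above Mt2 in 8, S100a13 above S100a16 in 7 and S100a10 above S100a6 in 11 of 16 samples, pairs whose levels did not differ beyond their spread. In the 3 GFP- samples the order was another, with Mt1 (8951 ± 2615 per kb) and S100a1 (5250 ± 1759 per kb) first, then Mt3 (2521 ± 1111 per kb) and S100a11 (2094 ± 491 per kb). Levels per length are approximate because reads were counted on constitutive regions only.

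**Figure D1:**
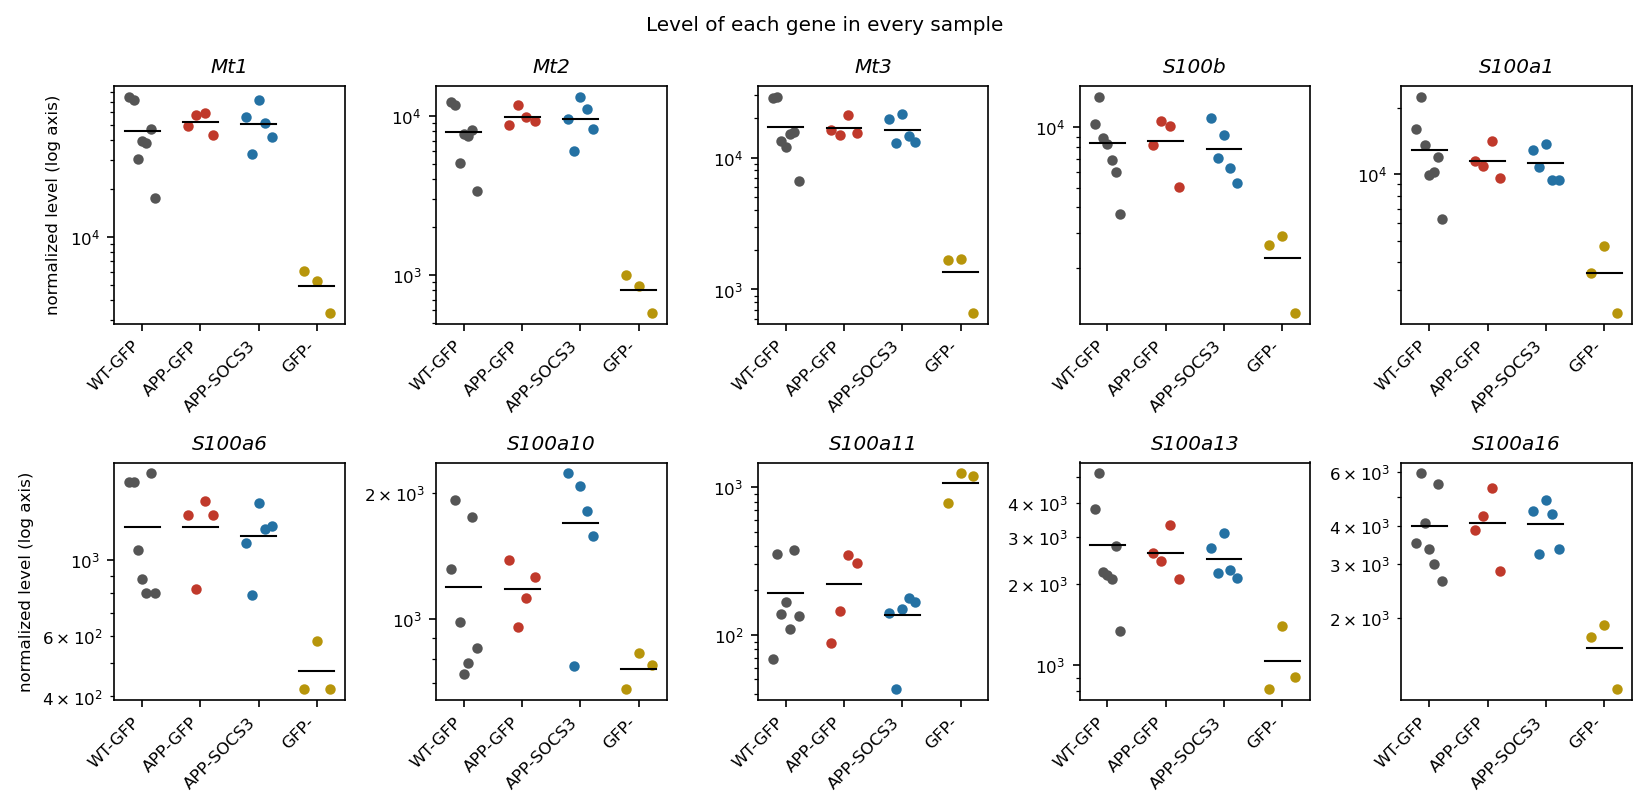
Normalized level of the 10 genes in every sample (points, log axis that differs between panels) by group, with the group mean as a line. The 3 GFP- samples are below all GFP+ samples for Mt1, Mt2, Mt3, S100b, S100a1, S100a6 and S100a16 and above them for S100a11.

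Comparison of GFP+ astrocytes with GFP- cells of WT-GFP mice asks in which cells these genes are active. Here 8 of the 10 genes were higher in astrocytes, S100a11 was lower, and S100a10 did not pass the test. Calls required limma's p, without adjustment, to be 0.05 or less and the change to be 1.5-fold or more, on levels as log2(level + 1). Of all 26709 genes tested, 42.8% were called in either direction and 9.25% were called higher in astrocytes. The groups did not overlap for 8 of the 10 genes, against 34.8% of all genes. Mt1 was 17499 to 75096 in WT-GFP (median 39640) and 6126, 5289 and 3329 in GFP- cells. Mt2, which has the same zinc and copper storage role, was 3360 to 12181 in WT-GFP (median 7731) and 992, 849 and 576 in GFP- cells. Mt3 was 6615 to 28992 in WT-GFP (median 15022) and 1687, 1704 and 664 in GFP- cells. The lowest astrocyte sample stood above the highest GFP- sample for all 3, and the log2 fold change was 3.12 ± 0.40 for Mt1, 3.22 ± 0.37 for Mt2 and 3.64 ± 0.45 for Mt3 (± SE, n = 7 and 3, limma with Benjamini-Hochberg adjusted p = 0.000177, 7.91e-05 and 0.000134).

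Among S100 genes, differences were smaller and not all in 1 direction. S100b, the secreted astrocyte calcium sensor, was 3700 to 14194 in WT-GFP (median 8225) and 2612, 2901 and 1196 in GFP- cells. S100a1, which modulates ryanodine receptors in muscle and is also found in astrocytes, was 6297 to 22499 in WT-GFP (median 11936) and 3581, 4731 and 2350 in GFP- cells. Both were higher in each astrocyte sample than in any GFP- sample, with log2 fold changes of 1.89 ± 0.39 and 1.82 ± 0.35 (limma adjusted p = 0.00411 and 0.00245). S100a6 (calcyclin), S100a13, which takes part in the release of FGF1, and S100a16 had log2 fold changes of 1.32 ± 0.33, 1.35 ± 0.37 and 1.30 ± 0.28 (limma adjusted p = 0.0117, 0.0188 and 0.00482). For S100a13, 1 GFP- sample at 1397 was above the lowest astrocyte sample at 1342. S100a11 (calgizzarin), an annexin partner, went the other way, with 69.1 to 377 in WT-GFP (median 139) and 782, 1242 and 1186 in GFP- cells (log2 fold change -2.67 ± 0.53, limma adjusted p = 0.00310). Of the 100-base words of its transcript, 34.0% were also found in Gm12854 or Gm7665, and 27.4% of those of Mt2 in Gm45774, so their reads could be shared with these copies. S100a10, with 739 to 1926 in WT-GFP and 677, 829 and 773 in GFP- cells, had a log2 fold change of 0.56 ± 0.33 (limma adjusted p = 0.222, 95% confidence interval -0.18 to 1.29), while edgeR on whole reads called it (0.92, adjusted p = 0.0934). The smallest p of an exact permutation test here is 0.0167, which was reached by the 8 genes without overlap, and the exact p was 0.0333 for S100a13 and 0.1 for S100a10.

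**Figure D2:**
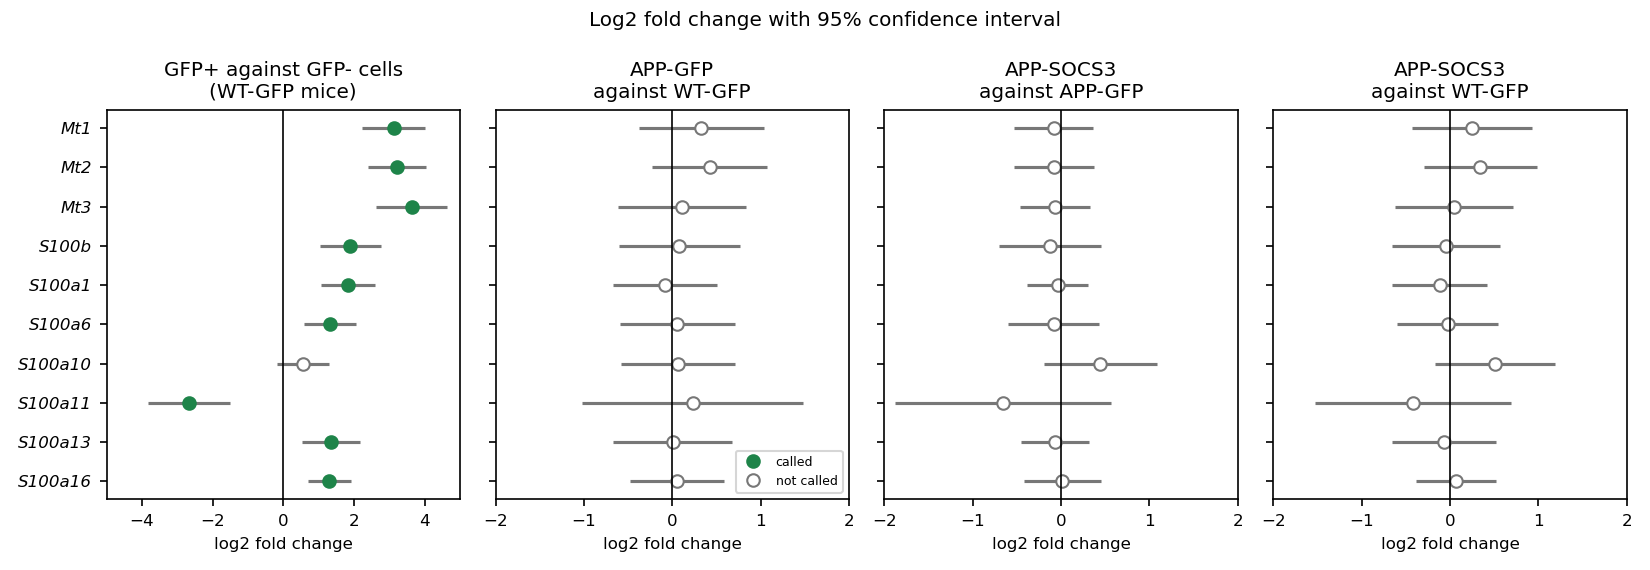
Log2 fold change of the 10 genes (points) with its 95% confidence interval (lines) in the 4 comparisons; the first panel has a wider axis. Filled points are called genes, which are 9 in the first panel and 0 in the others, where all intervals include 0.

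The GFP- level relative to WT-GFP differed among the 10 genes. As a percentage of the WT-GFP mean, it was 10.7% for Mt1, 10.1% for Mt2 and 7.87% for Mt3, within the range of the 8 astrocyte markers, 3.18% (Aldoc) to 16.6% (Slc4a4). It was 26.8% for S100b and 27.5% for S100a1, and 37.2 to 39.7% for S100a13, S100a6 and S100a16, all above that range, and 63.7% for S100a10 and 556% for S100a11. The share of uninfected astrocytes among GFP- cells was not measured, and its part in these levels was not tested. All values depend on the scaling between cell types, since the median of all genes was -1.31 (log2) in this comparison and moved between -1.74 and -0.37 under 4 other scalings, but the 8 genes stayed higher and S100a11 lower under each. The median log2 fold change of the 10 genes was 1.58.

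**Figure D3:**
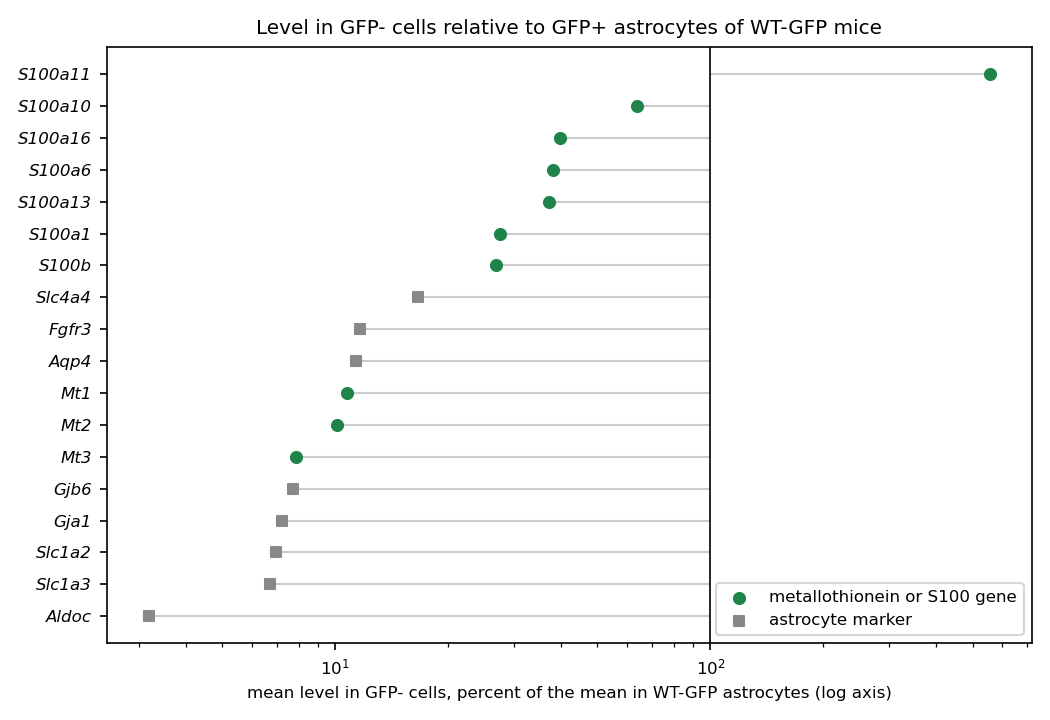
Mean level in GFP- cells as a percentage of the WT-GFP mean (log axis) for the 10 genes (circles) and 8 astrocyte markers (squares). The metallothioneins lie among the markers, at 7.87 to 10.7%, and the S100 genes to their right, from 26.8% to 556%.

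Within a sample, the proportion of Mt2 to Mt1 varied little and that of Mt3 to Mt1 more. Mt2 was 16.2 to 19.5% of Mt1 in WT-GFP and 16.1 to 17.3% in GFP- cells, with 16.7 to 21.5% for APP-GFP and 17.0 to 21.6% for APP-SOCS3, while Mt1 itself varied with a coefficient of variation of 46.0% in WT-GFP. Mt3 was 30.6 to 44.1% of Mt1 in WT-GFP and 19.9 to 32.2% in GFP- cells, with 25.8 to 35.5% for APP-GFP and 28.2 to 39.0% for APP-SOCS3. The difference in this ratio between GFP+ and GFP- cells had an exact permutation p of 0.0333, and 0.327 after Benjamini-Hochberg adjustment over 12 ratio tests. S100a13 was 16.3 to 23.9% of its neighbour S100a1 in the 16 GFP+ samples and 22.7, 29.5 and 38.5% in GFP- cells (exact permutation p = 0.0667 in WT-GFP mice, adjusted p = 0.327).

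Comparison of APP-GFP with WT-GFP asks what the disease model changes in astrocytes. None of the 10 genes was called (limma, 0 with an unadjusted p under 0.05; edgeR and DESeq2 also called 0), when 2.23% of 22969 genes tested were called, and the groups overlapped for all 10, when 0.313% of all genes did not overlap. Mt1 was 49540, 58045, 59216 and 43273 in APP-GFP, and Mt2 was 8751, 11725, 9916 and 9304, all inside the WT-GFP range. Their log2 fold changes were 0.33 (95% confidence interval -0.37 to 1.03) and 0.42 (-0.23 to 1.08), so that changes above 2.05-fold and 2.11-fold higher lie outside these intervals. Mt3 was 16131, 14949, 21012 and 15274 in APP-GFP, with a log2 fold change of 0.11 (-0.61 to 0.83). S100b was 8177, 10702, 10163 and 5058, and its log2 fold change was 0.08 (-0.61 to 0.77). The other S100 genes had log2 fold changes between -0.08 (S100a1) and 0.23 (S100a11), and the smallest p of the 10 genes was 0.183 (Mt2, adjusted p = 0.999, exact permutation p = 0.248). The median of the 10 genes was 0.07, and that of all genes 0.09. Spread was wider in WT-GFP, where Mt1, Mt2 and Mt3 had coefficients of variation of 46.0, 40.3 and 48.9%, than in APP-GFP, with 14.3% for Mt1 and 16.8% for Mt3, a difference that was not tested.

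Comparison of APP-SOCS3 with APP-GFP asks what inhibition of the JAK2-STAT3 pathway does in APP astrocytes, and that of APP-SOCS3 with WT-GFP what remains different from control. They share the APP-SOCS3 samples, and the former shares its APP-GFP samples with the comparison above. None of the 10 genes was called in either (0 with an unadjusted p under 0.05 with limma, and 0 called by edgeR and DESeq2), when 5.7% of 22844 and 5.21% of 22958 genes tested were called, and no gene had groups that did not overlap, when 2.01% and 0.566% of all genes had. Mt1 was 56154, 33078, 71328, 51547 and 42176 in APP-SOCS3, Mt2 was 9563, 6052, 13217, 11151 and 8262, and Mt3 was 19535, 12910, 21329, 14548 and 13124. Against APP-GFP, their log2 fold changes were -0.08 (95% confidence interval -0.53 to 0.37), -0.08 (-0.54 to 0.37) and -0.07 (-0.46 to 0.33), and against WT-GFP 0.25, 0.34 and 0.05. S100b was 11085, 7035, 9208, 6251 and 5278 in APP-SOCS3, with a log2 fold change of -0.13 (-0.70 to 0.45) against APP-GFP. S100a1, S100a6, S100a13 and S100a16 had log2 fold changes of -0.09 to 0.01 in the former and of -0.12 to 0.06 in the latter comparison. The median of the 10 genes was -0.08 and 0.01, and that of all genes 0.08 and 0.19.

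S100a10 and S100a11 had the largest differences of the 10 genes in both comparisons, in opposite directions, and neither passed. S100a10 was 2225, 769, 2079, 1810 and 1573 in APP-SOCS3 and 1378, 956, 1119 and 1256 in APP-GFP, so that 4 of 5 APP-SOCS3 samples were above all APP-GFP samples and replicate 2 was below them. Its log2 fold change was 0.45 ± 0.29 (95% confidence interval -0.19 to 1.08, limma adjusted p = 0.816, exact permutation p = 0.222). Against WT-GFP, in which 2 of 7 samples were above the highest APP-GFP sample, it was 0.51 ± 0.32 (-0.17 to 1.19, limma adjusted p = 0.916, exact permutation p = 0.159). Without APP-SOCS3 replicate 2 the gene was called in both, with 0.71 ± 0.18 and 0.77 ± 0.29 (limma adjusted p = 0.548 and 0.666). S100a11 was 140, 42.8, 150, 178 and 167 in APP-SOCS3 and 88.7, 144, 349 and 307 in APP-GFP, with a log2 fold change of -0.65 ± 0.56 (-1.88 to 0.57, limma adjusted p = 0.826, exact permutation p = 0.270). Microglial markers (8 of 8) and endothelial markers (8 of 8) were called lower in APP-SOCS3 than in APP-GFP, with median log2 fold changes of -1.59 and -2.76. S100a11 was the member with a higher level in GFP- cells, and the part of these cells in its values was not tested.

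The rest of both families, and genes that act with them, were counted from lists. Of 10 other family members, 5 were tested between GFP+ and GFP- cells and 3 were called lower in astrocytes, when 42.8% of all genes were called in either direction. S100pbp, a binding protein of an S100 protein that stood on the same list, was not called. S100a8 and S100a9, the calprotectin subunits of neutrophils, were 375, 430 and 940 and 855, 879 and 1889 in GFP- cells, and had at most 2 reads in any WT-GFP sample, and at most 16 and 73 reads in any APP-GFP sample. S100a3 had a mean level of 161 in GFP- cells and 18.9 in WT-GFP. Mt4, the metallothionein of squamous epithelia, and S100a5 had no read in any sample. None of the other family members was called between the astrocyte groups (limma; 4, 3 and 3 tested).

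Of 30 genes that handle zinc and copper, 6 were called higher in astrocytes and 7 lower, a share of 43.3% that was near the 42.8% of all genes, with a median log2 fold change of -0.59 against -1.31 for all genes. Slc39a12, a zinc importer, was the one with the smallest p, with a mean level of 18278 ± 5463 in WT-GFP and 1580 ± 1028 in GFP- cells (SD, n = 7 and 3) and a log2 fold change of 3.66 ± 0.37 (limma adjusted p = 2.92e-05). Ccs, the copper chaperone of superoxide dismutase, and Slc30a10, a manganese exporter, followed with 1.53 ± 0.29 and 1.27 ± 0.30. Mtf1, the factor that acts on metal response elements, was 338 in WT-GFP and 696 in GFP- cells (log2 fold change -1.13 ± 0.37, limma adjusted p = 0.0387), and Slc30a1, a zinc exporter, was -1.60 ± 0.50 (adjusted p = 0.0324). These 2 changes lay on either side of the median of all genes, -1.31, and a link to Mt1 and Mt2 was not tested. In APP-GFP against WT-GFP, 0 of 30 were called, when 2.23% of all genes were. In APP-SOCS3 against APP-GFP, 1 of 30 was called lower, when 5.7% of all genes were called (Slc39a8, mean level 32.8 against 237, limma adjusted p = 0.789). In APP-SOCS3 against WT-GFP, 1 of 29 tested was lower, when 5.21% were called (Slc39a4, 103 against 354, limma adjusted p = 0.320). Slc39a8 ranged from 45.3 to 667 in APP-GFP. Both had higher mean levels in GFP- cells (1399 and 879), and the part of these cells in their values was not tested.

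Of 13 S100 partners and receptors, 1 was called higher in astrocytes and 6 lower, or 53.8% against 42.8% of all genes. Ahnak, a scaffold that binds S100a10, was 215 in WT-GFP and 2054 in GFP- cells, and Anxa2, its annexin partner, 1527 and 6149, with log2 fold changes of -3.32 ± 0.37 and -2.10 ± 0.32 (limma adjusted p = 5.52e-05 and 0.000615), whereas S100a10 was not called. Ppp5c, a phosphatase activated by S100 proteins, was higher by 0.80 ± 0.15 (limma adjusted p = 0.00278). In APP-SOCS3 against WT-GFP, 2 of 13 were called lower, when 5.21% of all genes were called. These were Anxa2 and Bsg, a receptor of S100a9 at the cell surface, with log2 fold changes of -0.72 ± 0.27 and -0.73 ± 0.26 (limma adjusted p = 0.757 and 0.705, exact permutation p = 0.0354 and 0.0253). Against APP-GFP, 1 of 13 was called lower, when 5.7% were called (Bsg, -0.68 ± 0.30, limma adjusted p = 0.793, exact permutation p = 0.175). Endothelial markers were called lower in APP-SOCS3 than in WT-GFP for 6 of 8 genes, and their part in these values was not tested. Of 8 glucocorticoid-induced genes, Pdk4 was called higher in astrocytes and 4 lower, or 5 of 8 against 42.8% of all genes. Among the lower ones, Sgk1 was 638 in WT-GFP and 10948 in GFP- cells. Nfkbia and Errfi1 had log2 fold changes of -2.06 ± 0.30 and -3.96 ± 0.66 (limma adjusted p = 0.000424 and 0.00104). In APP-SOCS3 against APP-GFP, 1 of 8 was called lower, when 5.7% of all genes were called (Sgk1, 319 against 582, limma adjusted p = 0.729). Against WT-GFP, 1 of 8 was also called lower, when 5.21% were called (Sgk1, 319 against 638, limma adjusted p = 0.676). Sgk1 had a higher level in GFP- cells, and the part of these cells in its values was not tested.

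Between samples most pairs of the 10 genes varied in the same direction, least clearly those with S100a11. Over the 16 GFP+ samples, Pearson's r of log2 levels was positive for all 45 pairs, from 0.0217 to 0.968 with a median of 0.62. It passed an adjusted p of 0.05 for 33 pairs by r and 35 by Spearman's rho (permutation tests, Benjamini-Hochberg over 45 pairs). None of the 9 pairs with S100a11 passed by r. By rho, S100a11 passed with S100a6 and with S100a16 (rho = 0.55, permutation test, adjusted p = 0.0386 for each). Of the pairs without S100a11, S100b with S100a6 (r = 0.288), S100b with S100a10 (r = 0.266) and S100a1 with S100a10 (r = 0.437) did not pass by r either. The closest pairs were Mt1 with Mt2 (r = 0.968, rho = 0.962), S100a1 with S100a13 (r = 0.954, rho = 0.891) and Mt3 with S100a13 (r = 0.951, rho = 0.835), each with a permutation p of 1e-05 for r, the smallest 100000 permutations give, and adjusted p = 9e-05. Without the 2 samples farthest from the median of the first gene, r was 0.926, 0.863 and 0.926 for these pairs, and the median of all pairs 0.550, with 5 pairs below 0. The median was 0.663 with group means removed and 0.770 in WT-GFP samples alone. S100b with S100a11 was the loosest pair (r = 0.0217, rho = -0.0206, p = 0.938), and r was -0.255 without 2 samples.

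**Figure D4:**
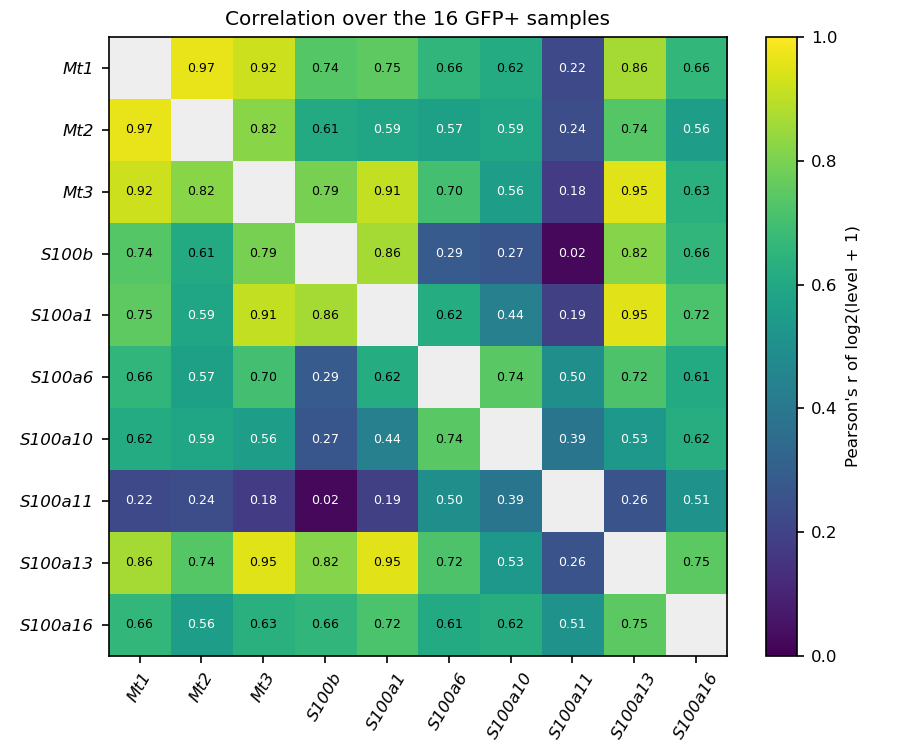
Pearson's r of log2(level + 1) over the 16 GFP+ samples for each pair of the 10 genes (colour and printed value). Values with S100a11 run from 0.0217 to 0.509, and those between metallothioneins from 0.82 to 0.97.

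The same samples were high or low for many short transcripts. WT-GFP replicate 2 had a median deviation of 0.75 (log2, from the mean of each gene) over the 10 genes and 0.66 over 536 other genes with transcripts up to 1000 bases, and replicate 7 had -0.90 and -0.71. Over 1640 genes with transcripts of at least 5000 bases, these samples deviated by -0.39 and 0.69. The 10 genes and the short genes deviated in the same direction in 14 of 16 samples, and the 10 genes and the long genes in 6. The part of transcript length in the correlations was not tested. With the median of the short genes as a covariate, a fit added after seeing the data, the log2 fold changes in APP-GFP against WT-GFP were 0.20 for Mt1 and 0.32 for Mt2, and none of the 10 genes was called in any of the 3 astrocyte comparisons.

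**Figure D5:**
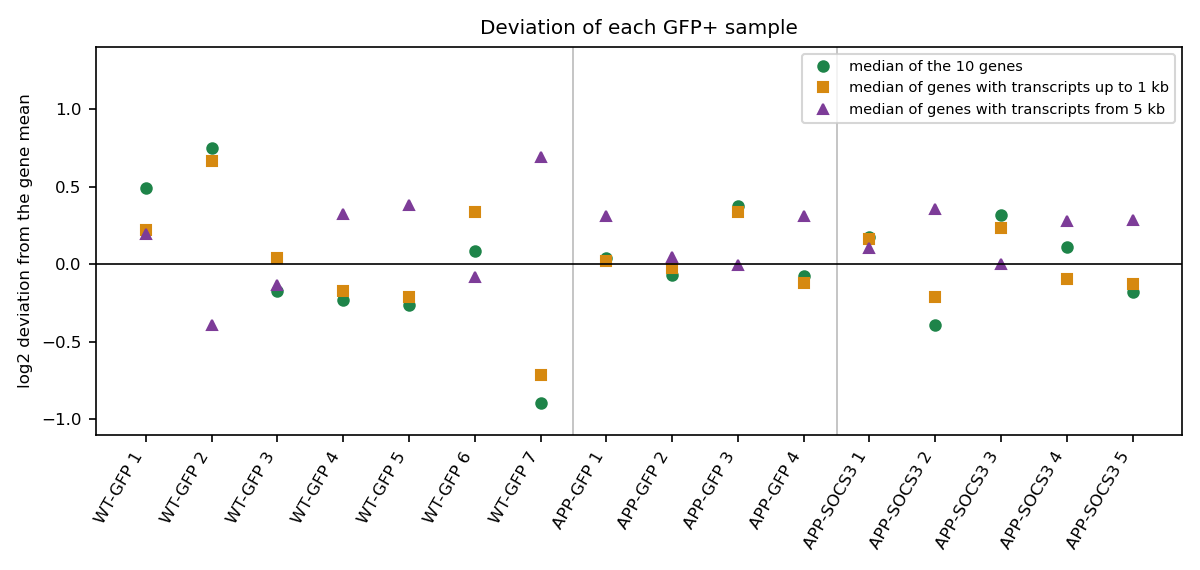
Median log2 deviation from the gene mean in each GFP+ sample for the 10 genes (circles), 536 genes with transcripts up to 1000 bases (squares) and 1640 genes with transcripts of at least 5000 bases (triangles). Circles and squares lie on the same side of 0 in 14 of 16 samples, not in WT-GFP replicate 3 and APP-SOCS3 replicate 4. Both are highest in WT-GFP replicate 2 (0.75 and 0.66) and lowest in replicate 7 (-0.90 and -0.71).

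Genes most like each member over the 16 GFP+ samples were found among 10662 genes. Mt3 was closest to Ndufa5 and Ndufb2 (r = 0.980 and 0.978), S100a1 to Uqcrq and Ndufb11 (both r = 0.985) and S100a13 to Ndufa2 (r = 0.974), which encode subunits of the respiratory chain, and then to Anapc13, Dynlrb1, Uqcc2 and Bola2. Mt1 and Mt2 both had Polr2k and Rps18 among their 3 closest genes (r = 0.879 to 0.941). The other was Pantr1 for Mt1 and the joint entry of Wdr89 and Rplp2-ps1 for Mt2. S100b was closest to Phyh (r = 0.925), S100a6 to Apoc1 (r = 0.884) and S100a16 to 2810428I15Rik (r = 0.950). Mgll and AW047730 were among the 3 genes closest to S100a10 (r = 0.936 and 0.921). S100a11 had the weakest best match, the joint entry of Kctd12 and Mir5130 (r = 0.866).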

How the data were processed

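The authors made cDNA from about equal, very small RNA inputs with a kit for full-length transcripts, sequenced read pairs, mapped them to mm10 with STAR 2.4.0, counted reads on constitutive regions of FAST DB genes and scaled counts with DESeq2. Each deposited value is thus a signal, the read count of a gene divided by 1 size factor per sample (0.756 to 1.18 units per read). Whole reads were recovered from them (100% of values whole within 0.001). Use of strand, treatment of reads that match several genes, and batches are not given in the sources used here. Reads carry no molecular identifiers, and PCR copies are not independent molecules.

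The 10 genes and all lists were chosen with earlier results of these data known. All 10 genes are named, then from each list the called genes with the smallest p (up to 3 per comparison), the 3 genes most like each member by Pearson's r (1 of them is not reported here), and defining markers; other genes named were chosen after their values were seen. Comparisons used limma 3.58.1 in R 4.3.3 on log2(level + 1), with a mean-variance trend and no covariates, for genes whose mean level reached 10 in 1 of the groups, so fold changes are on that scale. Calls follow the study's thresholds (unadjusted p of at most 0.05, fold change of at least 1.5), and adjusted p are Benjamini-Hochberg over all genes tested. Exact permutation tests were 2-sided. The study's filter on intergenic background was not used here. Alternatives were edgeR 4.0.16 and DESeq2 1.42.0 on whole reads, other pseudocounts (0.1, 10), minimum levels (0, 100), scalings, weights, 1 fit of all 19 samples, a replicate block, adjusted p, a fold change of 2, and each sample left out. The fits were tested on simulated reads. Transcripts are GENCODE principal transcripts on mm10.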

Additional observations from a re-analysis of the deposited data

Results flagged for a closer look

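In 2 of 30 sets of values, each 1 gene in a group of 4 to 7 samples, 1 sample stood apart by Dixon's test on log2(level + 1). Chance alone flags about 1 set in 20. Gaps are given on that log2 scale, and levels without logarithm. S100a6 was 821 in APP-GFP replicate 2 and 1353, 1481 and 1350 in the other APP-GFP samples, a gap of 0.843 of the range. S100a11 was 42.8 in APP-SOCS3 replicate 2 and 140 to 178 in the others, a gap of 0.83 of the range.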

How the results depend on the processing

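Of the 40 fold changes (10 genes in 4 comparisons), each recomputed under 12 other settings and without each sample, 895 of 900 values kept their side of the thresholds. The 9 calls between GFP+ and GFP- cells kept their direction and stayed called in all of them, and edgeR also called S100a10 (0.92, adjusted p = 0.0934). The other 4 exceptions were S100a10 in APP-SOCS3, called against WT-GFP with equal upper quartiles (0.86, adjusted p = 0.586) and sample quality weights (1.00, adjusted p = 0.0601), each giving 1 called gene of the 10, and without APP-SOCS3 replicate 2 in both comparisons (0 to 1 genes over samples left out); the cause was not tested. Uncalled fold changes took the other sign in 104 values, between -0.31 and 0.35. Called genes in all went from 11419 to 6709 with a minimum level of 100 between GFP+ and GFP- cells. For APP-GFP against WT-GFP they went from 513 to 817 with no minimum, 123 with a minimum of 100, 991 in 1 fit of all samples, 1100 with weights and 1 with adjusted p, for APP-SOCS3 against APP-GFP from 1301 to 650 with a minimum of 100 and 1 with adjusted p, and for APP-SOCS3 against WT-GFP from 1197 to 441, 2589 with weights and 7 with adjusted p. Without single samples they were 8838 to 11679, 393 to 677, 1052 to 1836 and 904 to 1435. The share of all calls that were higher moved from 21.6% to between 10.9% (upper quartiles) and 38.7% (edgeR) between GFP+ and GFP- cells, from 74.5% to 38.7% (DESeq2) to 91.6% in APP-GFP against WT-GFP, and from 61.2% to 29.2% (DESeq2) to 83.8% in APP-SOCS3 against WT-GFP.

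The replicate number was used as a block, although the labels do not tell whether samples with the same number share a mouse or a hippocampus. The main fits used no pairing, so a pairing of GFP+ with GFP- samples, if present, was left out of them. Correlations of deviations between same-numbered samples were -0.18 to 0.24, and samples correlated best with their own number in 2 of 3, 2 of 4, 2 of 4 and 0 of 5 pairs. With the replicate block, called genes were 10999, 663, 1132 and 1433 in the 4 comparisons and called members 9, 0, 0 and 0. Low levels limit S100a11 most, with 42.8 in its lowest sample.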
